A study of Mus musculus with 2 samples.

Results

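Notch receptors, their Jagged and Delta-like ligands and the Hes and Hey genes that they switch on were compared between a wild-type and a Prox1-deleted fetal mouse liver. The group comprised 10 genes (Notch1, Notch2, Notch3, Notch4, Jag1, Jag2, Dll1, Dll4, Hes1 and Hey1) of 18193 that the arrays measure through at least 1 unshared probe set. Its members were all 19 probe sets that the platform annotation assigns to exactly 1 gene of this list, and 0 probe sets shared by several genes named a member. RNA from whole liver of embryos at E14.5, strain NMRI/C57Bl6, was hybridized to 2 single-colour Affymetrix arrays, 1 per genotype. The first sample was wild type. The second was Prox1 f/f;Foxa3Cre: Cre under Foxa3, a gene of endoderm and its derivatives, recombines its floxed Prox1; blood, vessel and mesenchymal cells of the same organ do not derive from endoderm. How many embryos made up each sample, which exons Cre removes and whether the wild-type embryos carried a floxed allele are not given in the sources used here. With 1 array per genotype there were no replicates, so each value is a single reading, no SD or test between genotypes can be given, and each difference is one between these samples.

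Notch receptors are single-pass membrane proteins that are activated by Jagged or Delta-like ligands on a neighbouring cell. Cleavage by an ADAM protease and then by gamma-secretase frees the intracellular domain, which enters the nucleus, joins the DNA-binding protein RBPJ and a Mastermind coactivator, and turns on targets such as the Hes and Hey repressors. In developing liver, Jag1 on mesenchyme around the portal vein signals to Notch2 on hepatoblasts, a step needed for bile duct formation, while Dll4, Notch1 and Notch4 act in vessels and Notch3 in the mural cells around them.

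Most measured members read somewhat higher in the knockout, and few by much. A probe set was called measured where its signal exceeded 112.6 signal units, the higher of the medians of the 2 arrays, on at least 1 array; lower signals were raised to this floor before taking log2, so a probe set above it on 1 array only gives a bound. Of the 19 probe sets, 9 lay above the floor on both arrays, 1 on the knockout array only and 9 on neither. The 10 that were measured held 9 with a log2 difference (knockout minus wild type) above 0 and 1 below 0. A gene was represented by its brightest probe set, which left 8 of the 10 genes measured, 7 above 0 and 1 below 0; Notch4 and Hey1 were below the floor throughout. The median log2 difference over these 8 was 0.35, against 0.03 over all 11397 measured genes, of which 53.8% lay above 0. A single member gene, Notch1, was at least 2-fold higher, where 3.27% of all measured genes were, and 0 members were at least 2-fold lower, where 2.13% of genes were. At 1.5-fold the counts were 2 higher (Notch1 and Hes1) and 0 lower, beside 9.87% and 5.21% of all measured genes. By probe set, 1 of 10 was at least 2-fold higher and 0 lower, beside 2.57% and 1.7% of 23657 measured probe sets.

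**Figure D1:**
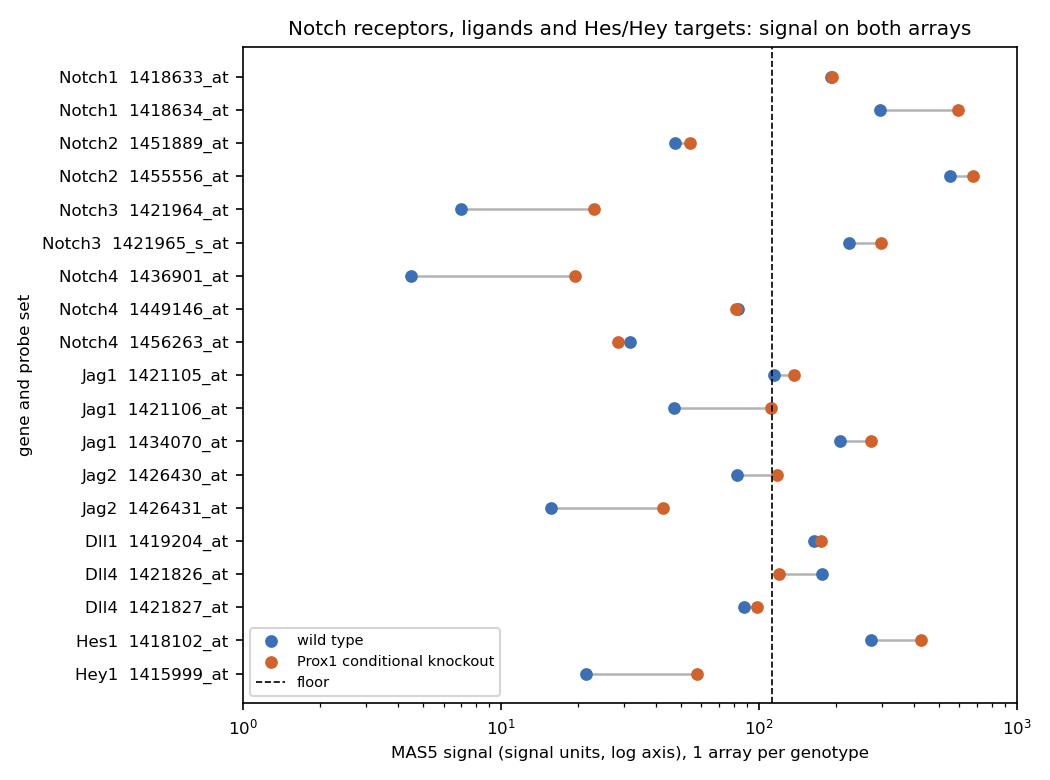
MAS5 signal (log axis) of each of the 19 probe sets of the 10 Notch genes on the wild-type array (blue) and the Prox1 conditional knockout array (orange), joined by a line; the dashed line is the floor of 112.6. Of the 19 probe sets, 16 read higher in the knockout and 3 lower, and 9 lie below the floor on both arrays. Of these 9, 7 read higher in the knockout, beside 56.8% of all probe sets below the floor on both arrays. The median signal over all probe sets was 101.1 for wild type and 112.6 for the knockout.

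Member signals ran from 4.48 to 677. The yardstick these arrays hold is the disagreement between probe sets of 1 gene, which measure the same pair of RNA samples. Over 4593 genes with at least 2 probe sets above the floor on both arrays, log2 differences of probe sets of the same gene lay a median of 0.24 apart, and in 1 gene of 10 by 0.58 or more. It holds none of the spread between embryos. The 5 member probe sets above the floor on both arrays with a mean signal up to 250 had log2 differences from -0.56 to 0.40, and the 4 with a mean signal between 250 and 1000 from 0.29 to 1.01. The middle 95% of all probe sets in these ranges ran from -0.79 to 1.0 and from -0.86 to 1.01, and 2.47% and 2.62% were at least 2-fold higher. All 9 lay inside these ranges, the brighter Notch1 probe set close to the upper edge of its own.

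**Figure D2:**
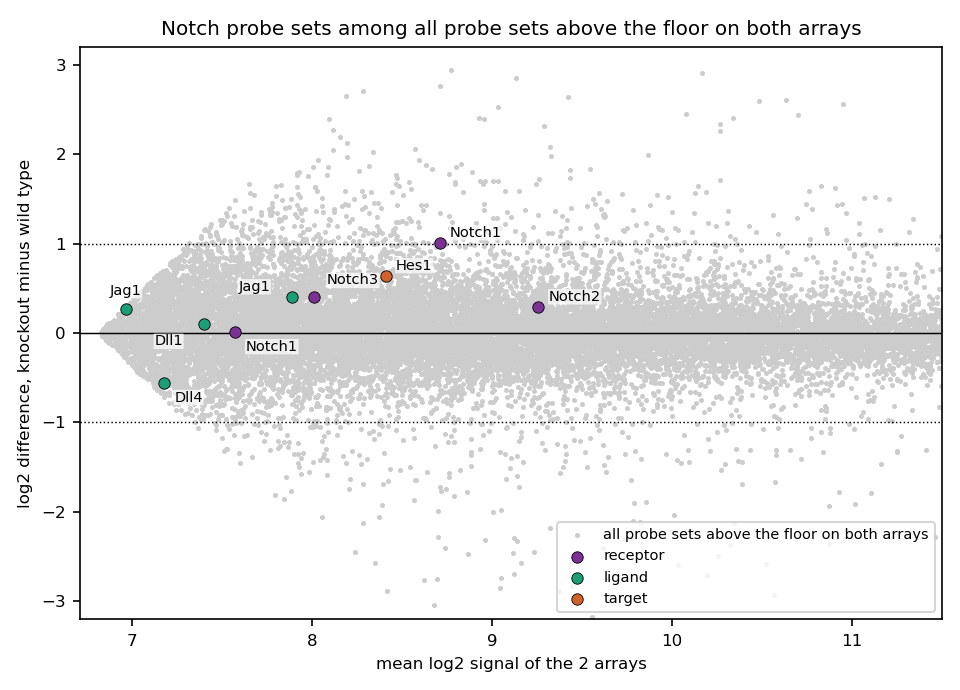
Log2 difference between knockout and wild type (vertical axis) against the mean log2 signal of the arrays (horizontal axis). Grey points are all probe sets above the floor on both arrays, except 2606 that are brighter or farther apart than the axes show; coloured points are the 9 Notch probe sets, by role, and dotted lines mark 2-fold. The Notch probe sets lie within the grey cloud between -0.56 and 1.01, with Notch1 at the upper dotted line.

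Among the receptors, Notch1 had the largest difference and its probe sets disagreed about it. Notch1 acts in endothelium, blood progenitors and many epithelia. Its brighter probe set (1418634_at) read 295 for wild type and 593 for the knockout, 2.01-fold higher. The other (1418633_at) read 189.9 and 192, a log2 difference of 0.01 that was -0.09 under quantile normalization and -0.06 after lowess correction. The readings are therefore high in the knockout on 1 probe set and level on the other. They lay 0.99 apart on the log2 scale, and 4.57% of genes with several probe sets above the floor on both arrays had a range at least as wide. On the brighter probe set the difference was just under 2-fold in each rescaling (0.95 with quantile normalization, 0.97 with lowess correction and 0.998 with median scaling), and it was 0.51 as the median over both probe sets.

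Notch2, the receptor of hepatoblasts and bile duct precursors, was nearly the same on both arrays. Its probe set above the floor (1455556_at) read 553 for wild type and 677 for the knockout, a log2 difference of 0.29, which is little more than the typical gap between probe sets of 1 gene. The dim probe set (1451889_at) read 47.3 and 54.0, both below the floor. For Notch3, the receptor of mural cells, the probe set above the floor (1421965_s_at) read 225 and 297, a log2 difference of 0.40. The other (1421964_at) read 7.0 and 23.0, also higher in the knockout but far below the floor. Notch4, an endothelial receptor, was not measured: its probe sets read 83.1 and 81.8 (1449146_at), 31.8 and 28.4 (1456263_at) and 4.48 and 19.5 (1436901_at), wild type first. These readings went in both directions, and the brightest probe set lay at 0.74 and 0.73 of the floor. The floor is an array median and not a detection call, so absence of Notch4 RNA is not shown.

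Of the ligands, Jag1 read higher in the knockout on all of its probe sets and Dll4 lower on its brighter one. Jag1, the ligand of portal mesenchyme and of bile duct cells, had its brightest probe set (1434070_at) at 207 for wild type and 273 for the knockout, a log2 difference of 0.40. A dimmer one (1421105_at) read 114 and 137, a log2 difference of 0.27. The remaining one (1421106_at) read 47.1 and 112.0, just below the floor on the knockout array, where the Jag2 probe set 1426430_at, at 117, was just above it. With the floor at the 30th percentile, the log2 difference of 1421106_at was 1.25. The Jag1 readings thus went in 1 direction, with sizes that differed between probe sets.

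Jag2, a second Jagged ligand, was above the floor in the knockout only. Its probe set 1426430_at read 82.2 and 117, giving a bound of at least 1.04-fold, and 1426431_at read 15.6 and 42.5, below the floor. Dll1, a ligand of many progenitor tissues, had a single probe set (1419204_at) at 164 and 175, a log2 difference of 0.10 that became -0.02 under quantile normalization. Its readings did not differ beyond the gap between probe sets of 1 gene.

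Dll4, the ligand of arterial and sprouting endothelium, was the lower member. Its brighter probe set (1421826_at) read 176 for wild type and 119 for the knockout, 1.47-fold lower, with a log2 difference of -0.56. The knockout reading was close to the floor but above it, so the floor did not change this difference. The dimmer probe set (1421827_at) read 87.4 and 98.8, below the floor on both arrays and in the opposite direction.

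Hes1 was the measured target. It encodes a repressor that keeps biliary and pancreatic progenitors from differentiating early, and other signals also regulate it. Its single probe set (1418102_at) read 272 for wild type and 424 for the knockout, 1.56-fold higher, with a log2 difference of 0.64. This lay above the gap of 0.58 that 1 gene of 10 reached between its own probe sets, and no other probe set of Hes1 was there to compare. It was just below that gap under quantile normalization (0.57) and with no floor (0.56). After lowess correction it was 0.59 and with median scaling 0.63. Hey1, a target in arterial endothelium, read 21.4 and 57.7 on its single probe set (1415999_at). The knockout reading was higher, but both were below the floor.

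The 9 probe sets below the floor on both arrays add little. Of them, 7 read higher and 2 lower in the knockout, and 5 had a ratio of at least 2. Among all 21380 probe sets below the floor on both arrays, 56.8% read higher in the knockout, 25.5% had a ratio of at least 2 and 17.2% a ratio of 0.5 or less, so large ratios are common at this level.

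The stretches before the transcription starts of Notch1 and Dll4 are shown because these genes stood at the upper and lower end of the group. They are the 250 bases before the start in RefSeq annotation of GRCm38.p6, 5′ to 3′ on the gene's strand: chr2:26503823-26504072 on the minus strand for Notch1 and chr2:119325534-119325783 on the plus strand for Dll4. Capitals mark CACGNG and CACNAG, sequences that Hes and Hey repressors can bind, and TGGGAA, the core bound by RBPJ, searched on both strands.
Notch1: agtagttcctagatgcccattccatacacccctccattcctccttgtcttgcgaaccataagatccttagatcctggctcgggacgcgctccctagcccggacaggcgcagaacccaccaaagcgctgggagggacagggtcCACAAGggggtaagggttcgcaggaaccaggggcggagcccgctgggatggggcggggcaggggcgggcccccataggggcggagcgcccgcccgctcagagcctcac
Dll4: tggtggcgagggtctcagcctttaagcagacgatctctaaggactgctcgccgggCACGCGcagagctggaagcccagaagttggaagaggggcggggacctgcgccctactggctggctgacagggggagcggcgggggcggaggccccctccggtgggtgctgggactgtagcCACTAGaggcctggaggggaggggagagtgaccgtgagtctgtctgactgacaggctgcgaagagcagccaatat
The table of starts held 9 such windows for 8 of the members, the receptors and ligands; the targets Hes1 and Hey1 were not analysed here. None of the 9 receptor and ligand windows contained TGGGAA, which 21.6% of all 32851 windows of this length held. CACGNG stood in 6 of the 9 windows (Jag1, Notch2, Notch3, Dll4 and both Dll1 starts), beside 23.5% of all windows, and CACNAG in 4 (Notch1, Notch2, Notch3 and Dll4), beside 36.7%. In Notch3 a CACGNG and a CACNAG match overlap. The Notch1 window shown has 1 CACNAG match and the Dll4 window 1 match of each kind. These are matches of letters in short windows, and nothing about binding was measured.

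By brightest probe set, the rest of the pathway differed little between the arrays. A list of 58 further pathway genes, grouped by role, had 53 on the arrays through an unshared probe set and 42 measured, of which 30 lay above 0 and 12 below 0. The median log2 difference was 0.10, against 0.03 for all measured genes. By its brightest probe set a single gene, Dtx4, was at least 2-fold higher and 0 were at least 2-fold lower, beside 3.27% and 2.13% of all measured genes. Dtx4 encodes a ubiquitin ligase of the Deltex family. Its brighter probe set read 196 for wild type and 411 for the knockout, a log2 difference of 1.07, and the other read 164 and 145, a log2 difference of -0.18. Like Notch1, it was higher on 1 probe set and not on the other. Some dimmer probe sets, which the gene count leaves out, were farther apart. Dtx2, also a Deltex gene, read 134 and 321 (1.25) on its dimmer probe set and 198 and 254 (0.36) on its brighter one. A dimmer probe set of Numb lay at 0.89 and one of Kat2b at -0.82, against -0.02 and -0.20 on the brightest.

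In the nuclear complex, Rbpj, the DNA-binding partner of all Notch receptors, read higher on all 3 of its probe sets. Wild-type and knockout signals were 665 and 917, 554 and 731, and 143 and 234, with log2 differences of 0.46, 0.40 and 0.71. The acetyltransferase Ep300 read 878 and 1235 (0.49 on the log2 scale). The 6 measured genes of this list had a median of 0.05, with 5 above 0 and 1 below 0. Maml1, a Mastermind coactivator, was nearly equal on both arrays (703 and 709, 0.01).

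Among 8 measured corepressor genes, 6 lay above 0 and the median was 0.17. Ctbp2, a corepressor that binds metabolic cofactors, read 988 and 1685 on its brighter probe set (0.77) and 671 and 1039 on the other (0.63). Tle1, a Groucho-family corepressor that Hes proteins recruit, read 554 and 775 (0.48) and, on its other probe set, 435 and 547 (0.33). In the list of receptor turnover and inhibitors, 7 of 9 measured genes lay above 0 with a median of 0.15. Dtx3, related to Dtx4, read 331 and 512 (0.63), whereas Nrarp, a feedback inhibitor that Notch itself induces, read 511 and 513 (0.01).

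The machinery that cleaves the receptor was level by its median, with single subunits in both directions. Of 8 measured genes, 5 lay above 0 and 3 below 0, with a median of 0.08. Adam10, the main ADAM protease of Notch, read 7487 and 7782, and Psenen and Ncstn, subunits of gamma-secretase, had log2 differences of -0.07 and -0.06. Aph1b, another subunit, read 149.8 and 240.1 (0.68) on 1 probe set and 99.1 and 92.9, below the floor, on the other. Psen2, a catalytic subunit, read 861 and 1029 (0.26). Aph1a, also a subunit, was lower on all 3 of its probe sets. It read 769 and 725 (-0.08) on the brightest, and 575 and 386 (-0.57) and 278 and 237 (-0.23) on the others.

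Enzymes that put sugars on the receptor went both ways, 3 of 5 above 0 and 2 below 0, with a median of 0.33. Pofut1, which adds O-fucose, was higher on its brightest probe set (771 and 1053, 0.45) and not on the others (172 and 173, and 241 and 215). Poglut1, which adds O-glucose, read 430 and 306 (-0.49). The Fringe enzymes Lfng and Mfng, which extend O-fucose and so tune the choice of ligand, had log2 differences of 0.38 and 0.33, and Rfng, the remaining Fringe, -0.26 on its brighter probe set and 0.13 on the other.

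The ligases that make ligands active were near 0 for Mib1 (891 and 872) and Mib2 (196 and 193), with a median of -0.02 over 3 genes. Neurl1a was a little above the floor at 118 and 162 (0.46) on its brightest probe set. Of other ligands, Dlk1, a hepatoblast surface protein related to Delta that inhibits Notch, read 10361 and 13090 (0.34), and Dll3, Dlk2 and Dner were not measured. Of 7 other Hes and Hey factors, 2 were measured, Hes6 at 409 and 442 (0.11) and 200 and 269 (0.43) on its probe sets, and Heyl, a target in mural cells, at 60.4 and 115, a bound of 0.03. Hes2, Hes3, Hes5, Hes7 and Hey2 were below the floor on both arrays.

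**Figure D3:**
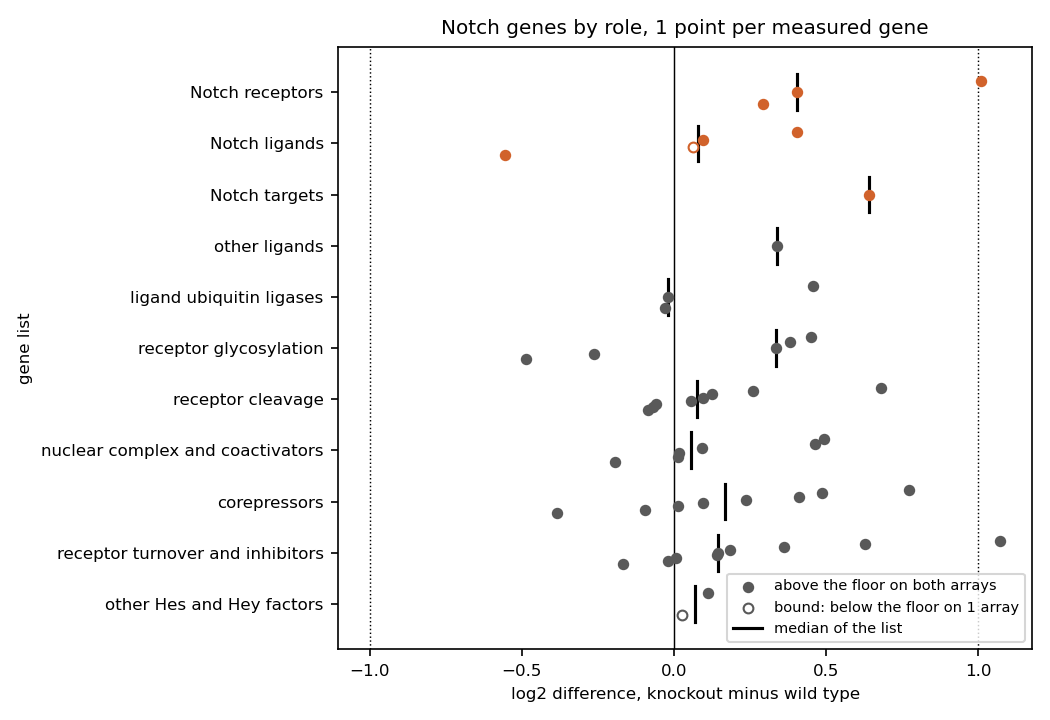
Log2 difference between knockout and wild type of each measured gene (1 point per gene, by its brightest probe set) for the Notch receptors, ligands and targets (orange) and for 8 lists of further pathway genes (grey). Open points are bounds, black bars list medians and dotted lines 2-fold; Notch1 and Dtx4 reach the upper dotted line, and list medians lie between -0.02 and 0.64.

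Several cell types of the organ express these genes, and their markers also differed between the arrays. In whole organ RNA, fewer cells of a type and less RNA per cell cannot be told apart. The liver identity of both samples was clear from albumin (Alb, 32396 and 33186) and Afp (36369 and 35212), and 7 of the 8 hepatoblast and hepatocyte genes with a probe set were measured. Summed over the genes of that list, below the floor or not, signals were 159818 for wild type and 145847 for the knockout. Alb, Afp, Ttr and Apoa1 made up most of these sums, which therefore say little about the dimmer genes of the list. The median log2 difference was -0.05, with Fgb, a fibrinogen chain, at -1.56, Hnf4a at -0.55 and Apoa1 at -0.35. Erythroid markers (8 of 8 with a probe set measured) summed to 103115 and 97629.6, with a median of -0.07; Tfrc was the farthest from 0 at -0.58, Gata1 lay at -0.30, Slc4a1 at 0.19 and Alas2 at 0.0036.

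Mural markers, beside which Notch3 and Heyl stand, were mostly higher. Of 10, 8 were measured, 7 above 0 and 1 below 0 (Mcam, 183 and 148, -0.30). At least 2-fold higher were 4 and lower 0. The median was 0.97 and the summed signal went from 2454 to 4894. Pdgfrb read 247 and 797 (1.69), Rgs5 179 and 539 (1.59) and Abcc9 568 and 1266 (1.15). Kcnj8 (74.5 and 226), also past 2-fold, Tagln (110 and 217) and Cspg4 (103 and 131) counted through bounds, with wild type below the floor. Such bounds could not lie below 0. The median fell between the bounds of Tagln and Kcnj8, so it is itself a bound. Myh11 and Cnn1 were below the floor on both arrays. The log2 difference of 0.40 for Notch3 was smaller than this median. Stellate and mesenchymal markers, of the cells that include portal mesenchyme, were higher to a similar degree. All 13 were measured, 12 above 0 and 1 below 0. At least 2-fold higher were 7 and lower 0, with a median of 1.13 and summed signals of 11600 and 24679.6. The gene below 0 was Des, nearly level at 154 and 151 (-0.02), and Lrat lay at 0.43. Col1a1 read 323 and 1278 (1.99), Col3a1 3689 and 6921 (0.91) and Cdh11 271 and 879.7 (1.70), with Hand2 at the same difference. Jag1, at 0.40, was also below this median.

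Endothelial markers, beside which Notch1, Notch4, Dll4 and Hey1 stand, were a little higher. All 18 were measured, and by brightest probe set 17 lay above 0 and 1 below (Flt4, -0.30). None was 2-fold apart, the median was 0.38 and the sum went from 7965 to 9621. Egfl7 lay at 0.18 on its brightest probe set and at -0.28, -0.10 and -0.24 on the others. Tie1 and Flt1 counted through bounds (0.22 and 0.54), with wild type below the floor. Pecam1 read 231 and 338 (0.55), Cdh5 188 and 259 (0.47) and Sox18 199.8 and 322 (0.69), with Ramp2 at 0.60 and Plvap at 0.57. Of 9 arterial markers 5 were measured, all above 0, with a median of 0.69 and summed signals of 1703 and 2784. Nrp1 read 879 and 1657 (0.92), Cxcr4 182 and 324 (0.83) and Efnb2 104 and 182 (a bound of 0.69). Gja4 lay at 0.24, and Gja5, Hey2 and Bmx were below the floor. Unc5b was below it on its brightest probe set (91.4 and 74.98) and above it in the knockout only on another (6.19 and 136). On its brighter probe set Dll4 thus differed in direction from the medians of both vessel lists. Its dimmer probe set, below the floor, read 87.4 and 98.8, in the direction of those medians. A test of that difference cannot be made with 1 array per genotype. Megakaryocyte markers, 6 of 6 with a probe set measured, had a median of 0.28 and summed signals of 14885 and 17962; Gp1bb lay at 0.71, Vwf at 0.56, Pf4 at 0.33 and Itga2b at 0.23.

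Cholangiocyte markers were farther apart than the Notch genes. Of 12, 10 had an unshared probe set and 8 were measured, all above 0, and 4 passed 2-fold. The median was 0.85, and signals summed to 3060.3 and 7254. Krt19, Cldn7, Epcam, Sox9 and Krt7 counted through bounds, with wild type below the floor. Such bounds could not lie below 0, so the count above 0 was partly fixed by the floor. Of the genes past 2-fold, only Sox4 was above the floor on both arrays. Krt19, a keratin of bile duct cells, read 70.5 and 982, Cldn7, a claudin, 47.6 and 714, and Sox4, a biliary transcription factor, 1181 and 3176. Sox9, which Notch signalling induces in bile duct precursors, read 48.5 and 127 on its brightest probe set, just above the floor in the knockout. Its other probe sets, below the floor on both arrays, went in opposite directions (58.5 and 22.1, and 6.5 and 88.2). Krt7 read 80.1 and 113.5. Onecut1 and Cftr were below the floor on both arrays. The arrays also differed in sex-linked genes: Xist read 11467 for wild type and 366 for the knockout, and Eif2s3y 0.866 and 1972. Prox1, the deleted gene, read 340 and 222 on its brightest probe set and 205.9 and 111.8, and 175.4 and 66.7, on the others, which lay above the floor in wild type only. The part of these differences in cell markers and of sex in the Notch values was not tested, and with 1 array per genotype sex and genotype cannot be told apart.

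**Figure D4:**
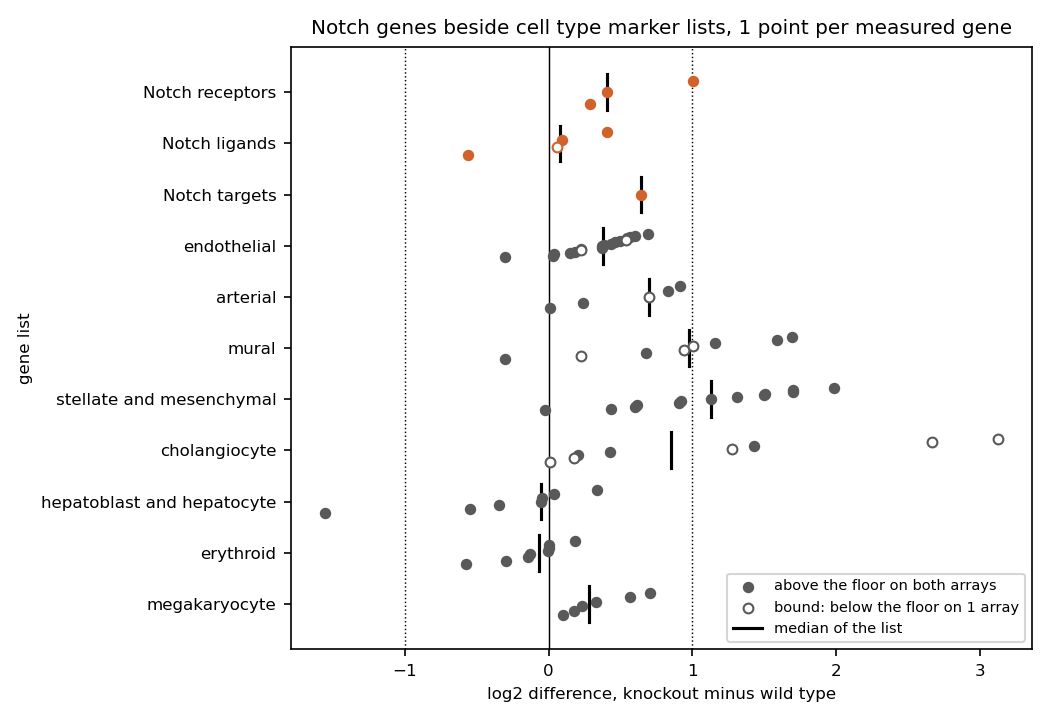
Log2 difference between knockout and wild type of each measured gene for the Notch receptors, ligands and targets (orange) and for 8 lists of cell type markers (grey). Open points are bounds, black bars list medians and dotted lines 2-fold; the mesenchymal and mural medians (1.13 and 0.97) lie above the Notch receptor, ligand and target medians (0.40, 0.08 and 0.64).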

How the data were processed

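The authors deposited a table of linear MAS5 intensity, named so in the submitters' processing notes, with 1 signal for each probe set on each array. The MAS5 version and detection calls are not given in the sources used here. The 2% trimmed mean was 500.0 on both arrays, so signals were used as scaled. Of 45101 probe sets, 64 controls were left out; the platform annotation gave 34945 of the others 1 symbol, 932 several and 9160 none listed, and the symbols of the 19 member probe sets were unchanged in RefSeq (GRCm38.p6).

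Signals were raised to the floor (50th percentile), log2 taken and knockout minus wild type computed; the brightest probe set has the highest mean log2 signal before the floor. No test was possible, and the number of arrays limits the precision. Alternatives changed the floor, scaling, probe set summary and fold. Named genes were all members, Prox1, in each pathway list those at 2-fold and the 2 farthest from 0, and in each cell type list its first 2 and the 3 farthest; others, such as Maml1, Nrarp, Adam10, Lfng and Sox9, were chosen after their values were seen. Lists were of pathway roles and of endothelial, arterial, mural, stellate, cholangiocyte, hepatoblast, erythroid, megakaryocyte, lymphoid, neural, and pancreas and gut markers; Hey2, Dlk1, Dtx1 and Sox2 stand in 2 lists. Members and lists were chosen with earlier results of these data known. Python 3.11.15, numpy 2.4.6, pandas 2.3.3, statsmodels 0.14.6, scipy 1.17.1 and matplotlib 3.10.9 were used, and the counting was tested on simulated arrays. The simulated differences were placed only in probe sets brighter than any member, so the counting of differences near the floor was not tested.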

Additional observations from a re-analysis of the deposited data

How the results depend on the processing

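The count of 1 member gene at least 2-fold higher was 1 with the floor at the 30th or 60th percentile. It was 0 with no floor (log2 of signal plus 50), with quantile normalization, lowess correction or median scaling, and with the median or mean over probe sets, and 2 at 1.5-fold. By probe set, the count of 1 became 2 with the floor at the 30th percentile (with Jag1 1421106_at) and at 1.5-fold, and 0 with no floor and in each rescaling. Among other pathway genes the count of 1 was 0 with no floor, with quantile normalization and with the median or mean over probe sets, and 4 at 1.5-fold. Counts of genes at least 2-fold lower were 0 in each alternative. The median over members ran from 0.30 to 0.40 and that of other pathway genes from 0.09 to 0.11, while that of all genes ran from 0.01 to 0.05. Notch1, Notch2, Notch3, Jag1, Jag2 and Hes1 were above 0 and Dll4 below 0 in every alternative that measured them, with ranges of 0.51 to 1.01, 0.27 to 0.29, 0.32 to 0.40, 0.31 to 0.40, 0.04 to 0.52, 0.56 to 0.64 and -0.68 to -0.41. Several alternatives could not change these signs. The 1.5-fold count changes no value, and a moved floor none that stays above it on both arrays. The median or mean over probe sets changes none with 1 measured probe set. At the main floor the bound for Jag2 could not lie below 0. With the floor at the 60th percentile 5 members were measured, and with it at the 30th all 10. No paired analysis was possible because each genotype had 1 array. Depth is not a limit of arrays; 9 of the 19 probe sets were limited by signal below the floor.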

Other observations

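Markers of other tissues in which Notch signalling is prominent were mostly below the floor. Of 7 T cell and lymphoid genes with an unshared probe set, 1 was measured, Pax5, at 102 on the wild-type and 146 on the knockout array; Cd3e, Ptcra, Rag1, Rag2, Il7r and the Deltex gene Dtx1 were below it on both arrays. Of 5 neural genes 1 was measured, Nes, an intermediate filament gene also expressed in growing vessels, at 176 and 100.3, and Sox2 was below the floor. None of 7 pancreas and gut genes was measured, among them Pdx1, Ptf1a and Neurog3, a gene that Hes1 represses, which read 52.8 and 57.2.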
